A study of Homo sapiens with 21 samples.

Results

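The 10 genes described here encode amino acid transporters of the plasma membrane: SLC3A2, SLC7A5, SLC7A8, SLC7A1, SLC7A2, SLC1A3, SLC1A4, SLC1A5, SLC38A1 and SLC38A2. They were chosen by name, with earlier results of these data in view, from the 20970 genes listed in 4 RNA-seq tables, and all 10 were listed in each table. SLC7A2 was singled out because its METTL4-si replicates in FADU cells differed, so its values in FADU are given per library and without a test. The study asked how METTL4, described there as a nuclear DNA adenine methyltransferase, takes part in the response of cancer cells to low oxygen. FADU is a head and neck squamous carcinoma line and BFTC909 a line from an upper tract urothelial carcinoma. Of each line, 2 libraries of Scramble-si cells in normoxia (18% O2), 2 of Scramble-si cells in hypoxia (1% O2, 18 h) and 2 of METTL4-si cells in hypoxia were measured. A second FADU experiment compared stable METTL4-overexpressing transfectants with control transfectants, both in normoxia and with 2 libraries each. In another experiment, 1 library of a CRISPR control was set beside 1 library from each of 2 FADU clones grown from single cells, in which prime editing had changed the DPPW catalytic motif of METTL4 to APAW, all in hypoxia. Nothing in the sources used here says that replicates came from separate cultures, so the p-values measure the spread between libraries, which may be technical.

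Amino acids cross the plasma membrane through families of carriers that differ in what they carry and in what drives them. SLC3A2, the CD98 heavy chain, brings light chains such as SLC7A5 (LAT1) and SLC7A8 (LAT2) to the cell surface, where they exchange large neutral amino acids, leucine among them, for intracellular ones such as glutamine. SLC7A1 (CAT1) and SLC7A2 (CAT2) carry arginine and other cationic amino acids. SLC1A5 (ASCT2) and SLC1A4 (ASCT1) exchange small neutral amino acids, including glutamine for SLC1A5, and SLC1A3 (EAAT1) takes up glutamate and aspartate. SLC38A1 (SNAT1) and SLC38A2 (SNAT2) take up glutamine and other neutral amino acids together with sodium. When amino acids run short, the transcription factor ATF4 is known to induce several of these genes. HIF factors induce many genes in low oxygen.

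Promoter sequence is shown for SLC7A5, SLC1A5 and SLC1A4, members that rose in BFTC909 hypoxia, of which SLC7A5 and SLC1A5 fell in FADU hypoxia. Some of their promoters hold letters that HIF or ATF4 are known to bind. RefSeq promoters, 250 bases before to 50 after each annotated start, were given for 9 members. They were searched on both strands for ACGTG, the core of the hypoxia response element, and for TGATGNAA, the C/EBP-ATF element. SLC7A5 held ACGTG on both strands as the palindrome CACGTG, 130 bases before its start, and SLC1A5 held the same palindrome 50 bases before 1 of its 3 starts. Another SLC1A5 promoter and 1 of 2 SLC1A4 promoters held TGATGNAA, and the other SLC1A4 promoter held ACGTG at 2 positions. The remaining SLC1A5 promoter (chr19:47291802-47292101), at the annotated start of the gene, held neither motif. Both SLC1A5 promoters with a match lie inside the gene. Each line gives a stretch in the direction of its gene, with the matching letters in capitals and its position in GRCh37.
SLC7A5, chr16:87903218-87903263, minus strand: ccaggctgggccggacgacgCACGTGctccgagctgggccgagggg
SLC1A5, chr19:47290575-47290620, minus strand: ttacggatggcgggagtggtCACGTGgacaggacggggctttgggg
SLC1A5, chr19:47288141-47288188, minus strand: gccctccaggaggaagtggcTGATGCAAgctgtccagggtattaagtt
SLC1A4, chr2:65215517-65215561, plus strand: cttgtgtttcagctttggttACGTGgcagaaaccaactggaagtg
SLC1A4, chr2:65216506-65216553, plus strand: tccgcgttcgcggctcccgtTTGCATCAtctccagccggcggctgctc
SLC3A2 held TTACATCA, a match to TGATGNAA on the reverse strand, 38 bases after 1 of its 3 starts, and the single SLC38A2 promoter held neither motif. SLC1A3, which fell in hypoxia in both lines, and SLC38A1, called in no comparison, each held both motifs, in different promoters. SLC7A8 held ACGTG and SLC7A1 held TGATGNAA. Whether either motif goes with a change was not tested. Over the 9 members, 6 had a promoter with ACGTG, beside 24.9% of all 27305 genes in the reference table. TGATGNAA was found in a promoter of 6 members as well, beside 4.46% of all genes. Genes with several promoters have more chances of a match, and a match describes letters, not a bound site.

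The lines were checked against marker genes. All 7 squamous markers were listed in FADU cells, with KRT5 between 1340.4 and 2819 CPM in the knockdown libraries. CPM here are read counts scaled to library depth with the TMM method, the unit of all levels below. Of 12 urothelial markers only KRT8, KRT18, GATA3 and PPARG were listed in BFTC909, without KRT7, KRT19, KRT20 or any uroplakin, while 9 of 11 fibroblast markers were. FADU listed 8 of the 12 urothelial markers, KRT7, KRT19, UPK2 and FOXA1 among them. The summed level of the listed urothelial markers in normoxia was 3998 and 3492 CPM in FADU, against 113 and 108 CPM in BFTC909. CA9 and SLC2A1, genes that hypoxia induces, were higher in both hypoxia libraries of each line. Of the 8 hypoxia check genes, 7 were higher and 1 lower (log2 fold change -0.41) in FADU hypoxia, and all 8 were higher in BFTC909 hypoxia. With METTL4-si in FADU, 7 were lower and 1 higher (0.45). CA9 rose from 2.33 and 2.55 to 31.0 and 37.8 CPM in FADU and from 0.358 and 1.17 to 54.0 and 56.2 CPM in BFTC909. In the METTL4-si libraries of FADU, CA9 was at 1.87 and 2.22 CPM and SLC2A1 at 353 and 364 CPM, beside 371 and 352 CPM in normoxia and 1281 and 1409 CPM in hypoxia. In BFTC909 the METTL4-si libraries lay between the other groups, with CA9 at 5.53 and 5.84 CPM, and all 8 hypoxia check genes were lower than in hypoxia (median -1.38, summed level 2397 and 2424 against 1054 and 910.1 CPM, and 564 and 592 CPM in normoxia). METTL4 itself did not pass the test in the libraries labelled METTL4-si of either line, so METTL4-si names libraries by their label throughout. It had 26.6 and 25.3 CPM with Scramble-si and 24.2 and 27.1 CPM with METTL4-si in hypoxic FADU (log2 fold change -0.02, adjusted p = 0.9, limma), and 19.0 and 15.6 against 14.4 and 12.2 CPM in BFTC909 (log2 fold change -0.36, adjusted p = 0.0717, limma).

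In the knockdown experiments, 1 library of 3 groups stood apart from its replicate. The transcripts of luminal breast cells GATA3, GREB1 and TFF1 had 216, 187 and 135 CPM in METTL4-si replicate 1 of FADU and 41.1, 36.9 and 26.2 CPM in normoxia replicate 1, while TFF1 was at 0 in the other 4 libraries. Over the 14 of 16 luminal breast markers listed, the median level was 24.9 and 2.59 CPM in normoxia, 3.93 and 4.01 in hypoxia and 86.7 and 2.67 in METTL4-si. In BFTC909, METTL4-si replicate 2 had 128 CPM of GATA3 and 715 CPM of KRT8, against 0.844 and 5.02 CPM in replicate 1, and a median of 185 CPM over 9 listed markers against 7.21, 7.55, 5.78, 5.78 and 10.6 CPM in the other libraries. In bulk RNA, more cells of a type and more RNA per cell cannot be told apart, and the source of these transcripts was not tested. Replicates differed most in these 3 groups. The chi-square of reads per degree of freedom was 9.34 in FADU normoxia, 28.9 in FADU METTL4-si and 23.9 in BFTC909 METTL4-si. In the other groups with replicates it was 2.11 to 5.23. Counts of called members, and of the lists of other amino acid handling genes, with METTL4-si are given below without these METTL4-si libraries as well. Counts of markers were not repeated without them.

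In hypoxia 3 transporters, SLC7A5, SLC3A2 and SLC1A5, fell in FADU and rose in BFTC909, while SLC1A3 fell in both lines. A gene was called when limma, fitted to all genes of a table on log2(CPM + 1), gave a change of at least 1.3-fold with a Benjamini-Hochberg adjusted p under 0.05, and all changes below are on that scale. In FADU hypoxia, 0 of 9 tested members rose and 4 fell, SLC7A5, SLC3A2, SLC1A3 and SLC1A5, beside 9.73% of all genes called higher and 9.65% called lower. In BFTC909 hypoxia, 5 of 10 rose, SLC7A5, SLC3A2, SLC1A4, SLC1A5 and SLC38A2, and SLC1A3 fell, beside 17.9% of all genes higher and 18.3% lower. With METTL4-si in hypoxia, 4 of 9 were higher in FADU, SLC7A8, SLC1A3, SLC1A4 and SLC1A5, and 0 lower, beside 12.5% of all genes higher and 15.3% lower. In the same FADU comparison 5 of 7 squamous markers were lower (median -0.61), with a summed level of 3253 and 3591 CPM in hypoxia and 2041 and 2239.8 CPM with METTL4-si. In BFTC909 with METTL4-si, 5 of 10 were lower, SLC7A5, SLC3A2, SLC7A1, SLC1A4 and SLC1A5, beside 13.2% of all genes higher and 11.7% lower. SLC7A8 met the limits for a higher level there, but it passed the filter on low values mainly through those METTL4-si libraries, so its values are a description. Fibroblast markers moved in BFTC909 too: 8 of 9 were higher in hypoxia (median 1.86) and 5 lower and 2 higher with METTL4-si (median -0.66), with summed levels of 1346 and 1463 CPM in normoxia, 5365 and 5617 CPM in hypoxia and 2943 and 3154 CPM with METTL4-si. The part of these markers in the transporter changes was not tested. The METTL4-si comparisons share their 2 hypoxia libraries with the hypoxia comparisons, so opposite signs in the 2 comparisons of a line are not separate evidence. Leaving out any 1 of the 4 libraries compared lowered the count in FADU hypoxia from 4 to between 0 and 1, and leaving out hypoxia replicate 1 or 2 lowered that of METTL4-si in FADU from 4 to 1 or 2. Without both normoxia replicate 1 and METTL4-si replicate 1 of FADU, 4 members were called in FADU hypoxia and 3 with METTL4-si, and without METTL4-si replicate 2 of BFTC909, 6 were called with METTL4-si, SLC7A8 included. The fit without both FADU libraries took its spread from the 2 hypoxia libraries alone. Those differed least of the FADU knockdown groups (chi-square per degree of freedom 2.73, against 9.34 in normoxia and 28.9 in METTL4-si). Its counts therefore cannot show that the calls hold. The smallest change called was that of SLC1A4 in BFTC909 METTL4-si (-0.41). Just outside the 1.3-fold limit lay SLC38A1 in FADU METTL4-si (0.36, adjusted p = 0.00898, limma).

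**Figure D1:**
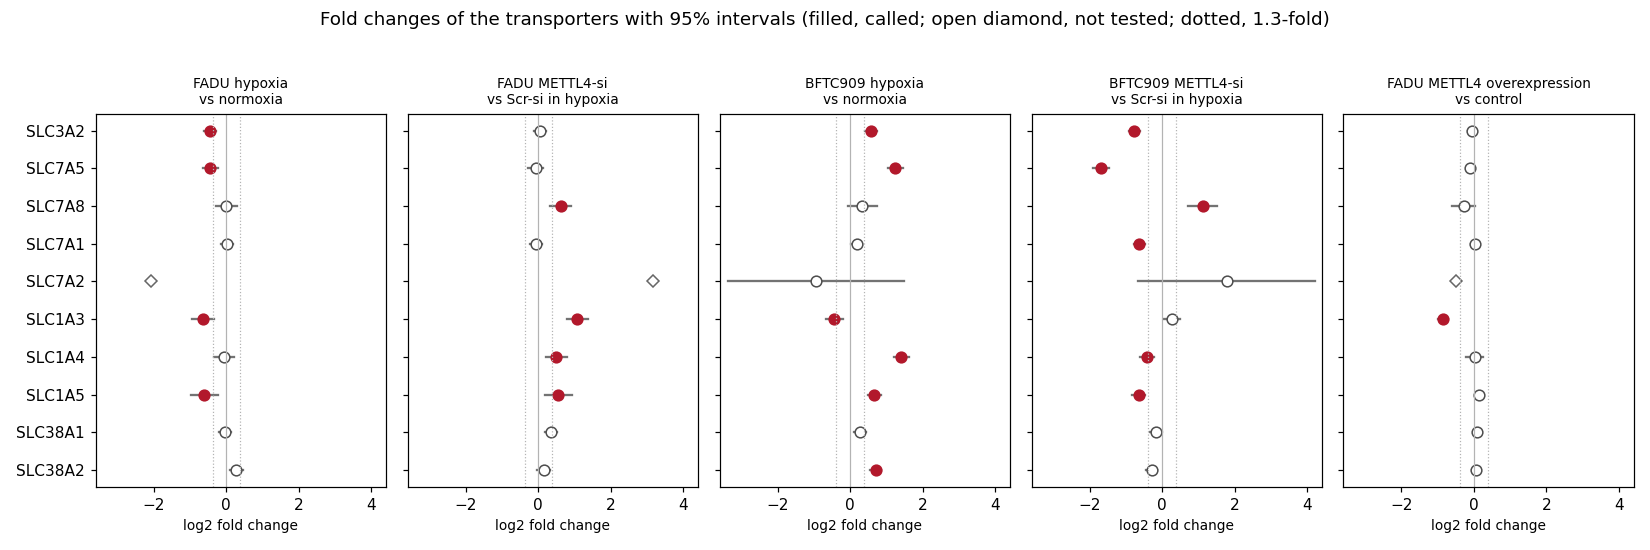
Log2 fold change of each transporter in 5 comparisons, with 95% intervals; filled points were called, open points were not, diamonds mark SLC7A2 in FADU, which was not tested, and dotted lines mark 1.3-fold. In hypoxia SLC3A2, SLC7A5 and SLC1A5 lie left of 0 in FADU and right of 0 in BFTC909, and the filled point of SLC7A8 with METTL4-si in BFTC909 is a description.

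Levels of different genes were compared per kb of exon, taking all annotated exons of a gene together. SLC1A3 has 21227 such bases, against 3332 to 10015 for the other members, which lowers its level per kb. In normoxic FADU, SLC7A5 stood highest at 463 CPM per kb, followed by SLC38A2 (86.6), SLC3A2 (80.9), SLC38A1 (52.4), SLC7A1 (50.6) and SLC1A5 (44.2 CPM per kb). The other 4 lay at 2.04 CPM per kb or less, and among them SLC1A3 and SLC7A2, and SLC7A2 and SLC1A4, overlapped between replicates. In normoxic BFTC909 the order was SLC7A5 (79.5), SLC1A5 (73.9), SLC7A1 (67.0), SLC38A2 (56.9), SLC38A1 (38.4) and SLC3A2 (32.4 CPM per kb), and the other 4 lay at 3.45 CPM per kb or less. None of these BFTC909 neighbours overlapped. SLC7A5 was first in all groups but 1: in BFTC909 with METTL4-si it stood at 59.0 CPM per kb, below SLC38A2 at 75.8 and SLC1A5 at 75.0 CPM per kb, which overlapped each other.

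**Figure D2:**
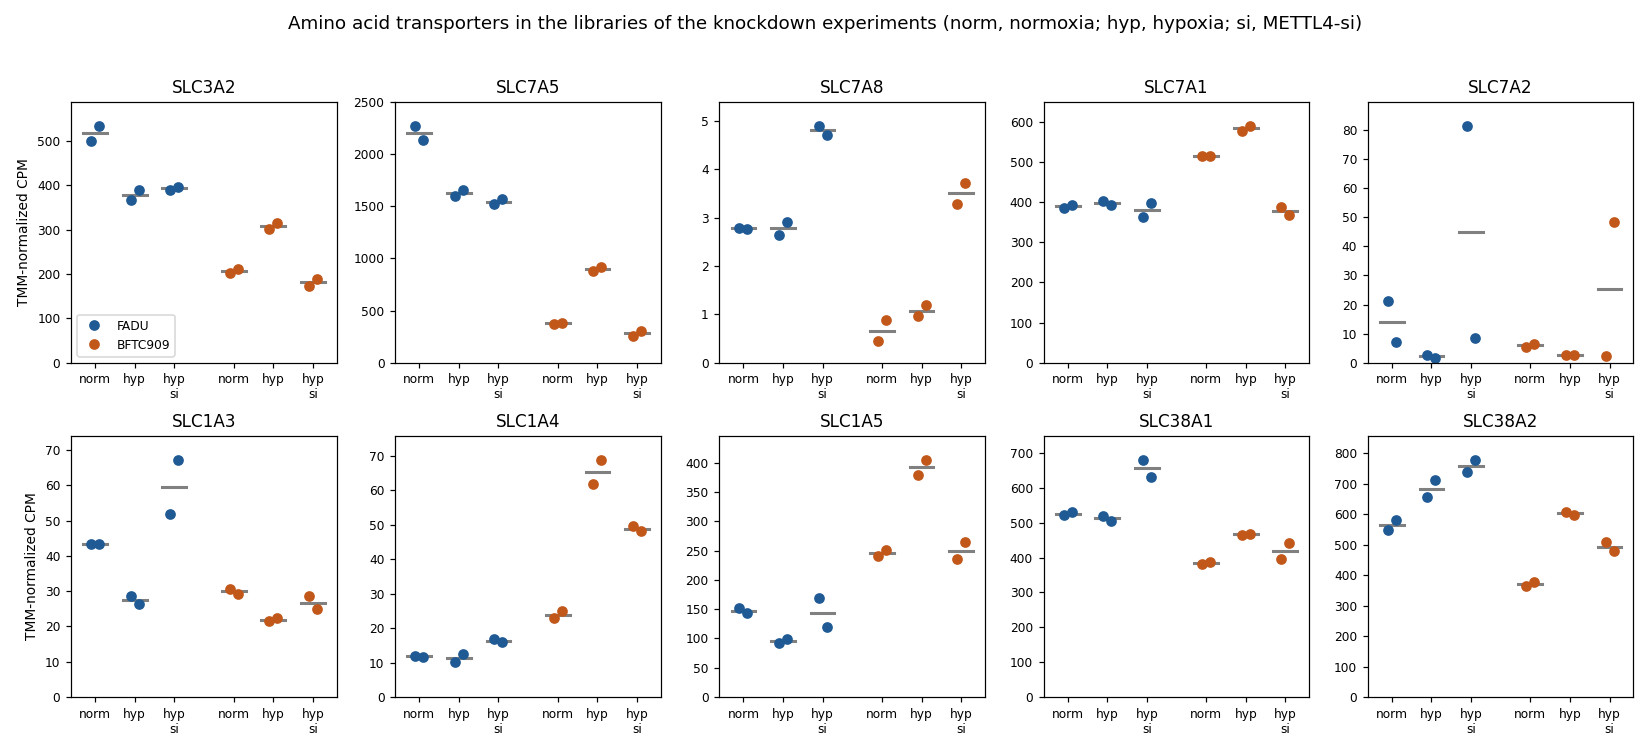
CPM of each transporter in every library of the knockdown experiments (points; bars, mean of 2 libraries; vertical axes start at 0), FADU in blue and BFTC909 in orange. SLC7A5 and SLC3A2 are highest in normoxia in FADU and highest in hypoxia in BFTC909, and the 2 METTL4-si points of SLC7A2 lie far apart in both lines.

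SLC7A5 and its heavy chain partner SLC3A2 moved together in every hypoxia and knockdown comparison in which either was called. SLC7A5 (GRCh37 chromosome 16, 87863629 to 87903113, minus strand) had 2275 and 2136 CPM in normoxic and 1596 and 1659 CPM in hypoxic FADU (log2 fold change -0.44 ± 0.0816 (SE), adjusted p = 0.0119, limma). Both hypoxia libraries were below both normoxia libraries. In BFTC909 it had 375 and 382 CPM in normoxia and 882 and 919 CPM in hypoxia (log2 fold change 1.25 ± 0.0913 (SE), adjusted p = 8.65e-05, limma), without overlap. It was lower in the METTL4-si libraries, at 255 and 307 CPM (log2 fold change -1.68 ± 0.0913 (SE), adjusted p = 4.2e-05, limma), below the normoxia libraries. In FADU the METTL4-si libraries had 1522 and 1569.7 CPM, a difference from hypoxia of -0.07 (95% interval -0.27 to 0.12, limma). The fall in FADU hypoxia lost its call when each library was centred on its median (-0.39, adjusted p = 0.0687, limma). Reads shared with the pseudogenes SLC7A5P1 and SLC7A5P2 could have been split or dropped by the authors' counting.

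SLC3A2 (chromosome 11, 62623476 to 62656352, plus strand) fell in FADU hypoxia and rose in BFTC909 hypoxia like SLC7A5, with a smaller change in BFTC909. Its levels were 499 and 535 CPM in normoxic and 366 and 390.0 CPM in hypoxic FADU (log2 fold change -0.45 ± 0.07 (SE), adjusted p = 0.00648, limma). They were 203 and 211 CPM in normoxic and 302 and 315 CPM in hypoxic BFTC909 (log2 fold change 0.57 ± 0.0674 (SE), adjusted p = 0.00061, limma). METTL4-si libraries had 174 and 189 CPM in BFTC909 (log2 fold change -0.76 ± 0.0674 (SE), adjusted p = 0.000295, limma), again below both normoxia libraries. In FADU they had 391 and 397 CPM, both above the hypoxia libraries (difference 0.06, 95% interval -0.11 to 0.23, limma), whereas SLC7A5 lay below them.

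SLC7A8 (chromosome 14, 23594504 to 23652883, minus strand), a light chain that uses the same heavy chain, was scarce in both lines and moved otherwise. In FADU it had 2.78 and 2.77 CPM in normoxia, 2.65 and 2.92 CPM in hypoxia and 4.91 and 4.72 CPM with METTL4-si. Both METTL4-si libraries were above the other 4 (log2 fold change 0.62 ± 0.123 (SE), adjusted p = 0.01, limma), and the gene was still called without METTL4-si replicate 1 but not without hypoxia replicate 1 or without hypoxia replicate 2. In BFTC909 the levels were 0.448 and 0.881, then 0.964 and 1.19, then 3.28 and 3.73 CPM, the lowest resting on 10 reads and the highest on 74. Both METTL4-si libraries were above both hypoxia libraries (log2 difference 1.12), and hypoxia and normoxia were not told apart (0.33, adjusted p = 0.155, limma). The gene passed the filter on low values in BFTC909 only through 1 hypoxia and 2 METTL4-si libraries, so a high level there was a condition of its being tested, and no test of that difference is given.

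Of the cationic carriers, SLC7A1 (chromosome 13, 30083551 to 30169825, minus strand) was called in neither FADU comparison, with 386 and 393, 402 and 392 and 363 and 397 CPM in normoxia, hypoxia and METTL4-si. The hypoxia difference there was 0.03 (95% interval -0.14 to 0.19, limma) and the groups overlapped. In BFTC909 it had 514 and 516 CPM in normoxia and 577 and 591 CPM in hypoxia, a difference below 1.3-fold (0.18, adjusted p = 0.0478, limma). In the METTL4-si libraries it was at 389 and 367 CPM (log2 fold change -0.63 ± 0.0623 (SE), adjusted p = 0.000485, limma), below the normoxia libraries.

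SLC7A2 (chromosome 8, 17354597 to 17428082, plus strand) is described library by library. In FADU it had 21.1 CPM in normoxia replicate 1 and 7.15 in replicate 2, 2.61 and 1.78 in hypoxia, and 81.5 and 8.59 CPM with METTL4-si. The 2 highest libraries were the 2 with luminal breast transcripts. Among the other 4, normoxia replicate 2 (7.15 CPM) and METTL4-si replicate 2 (8.59 CPM) were above both hypoxia libraries. In BFTC909, normoxia had 5.55 and 6.33 CPM and hypoxia 2.60 and 2.63 CPM, and METTL4-si had 2.16 CPM in replicate 1 and 48.2 CPM in replicate 2. The highest was again the library with GATA3 and KRT8 far above its replicate. Neither BFTC909 comparison was called (hypoxia -0.94, adjusted p = 0.491; METTL4-si 1.79, adjusted p = 0.229, limma). In a fit to the normoxia and hypoxia libraries alone, the hypoxia difference was called lower (-0.94, adjusted p = 1.48e-05, limma). The METTL4-si difference was 3.77 without METTL4-si replicate 1 and -0.20 without METTL4-si replicate 2. Each of these leaves 1 METTL4-si library, so no p-value is given for them. The part of the luminal breast transcripts in these levels was not tested.

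**Figure D3:**
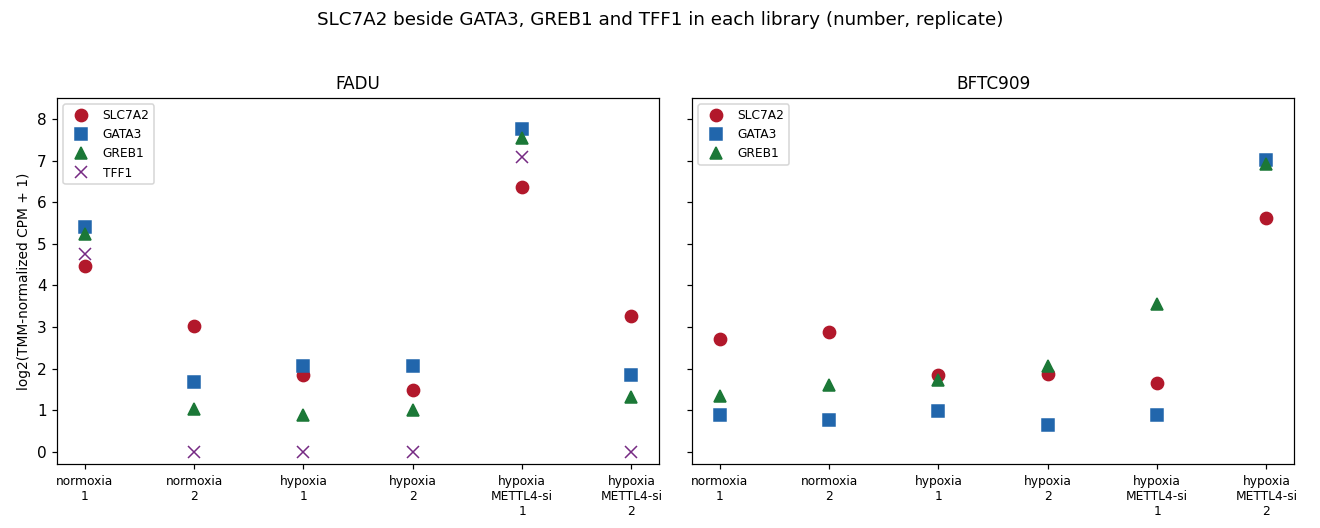
Log2(CPM + 1) of SLC7A2 and of GATA3, GREB1 and TFF1 in each library of the knockdown experiments; TFF1 was not listed in BFTC909. All 4 genes are highest in METTL4-si replicate 1 of FADU, and the 3 genes shown for BFTC909 are highest in METTL4-si replicate 2.

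Among 15703 genes with a mean of at least 1 CPM, those whose log2(CPM + 1) followed SLC7A2 most closely over the 6 FADU libraries included RNF208 (Pearson r 0.998), SCRN2 (0.995), ARFGAP1 (0.994), TTC3P1 (0.993), HAGHL (0.992), OGG1 (0.992), KLHL25 (0.992), TJP3 (0.992) and CERS2 (0.989). Like SLC7A2, each of these genes was highest in METTL4-si replicate 1 and lowest in the hypoxia libraries. The correlation was not repeated without METTL4-si replicate 1. CERS2 ranged from 112 to 197 CPM and TJP3 from 1.19 to 10.0 CPM. The correlation is a description over 6 libraries that share a table and, in 2 of them, the luminal breast transcripts.

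The glutamate and neutral amino acid carriers of the SLC1 family differed among themselves. SLC1A3 (chromosome 5, 36596690 to 36688436, plus strand) was lower in hypoxia in both lines. It had 43.4 and 43.2 CPM in normoxic and 28.5 and 26.4 CPM in hypoxic FADU (log2 fold change -0.64 ± 0.125 (SE), adjusted p = 0.0138, limma), and 30.7 and 29.2 against 21.5 and 22.3 CPM in BFTC909 (log2 fold change -0.43 ± 0.0949 (SE), adjusted p = 0.0085, limma). Both calls were lost when any 1 of the 4 compared libraries was left out, and the BFTC909 call also with median-centred libraries and with a pseudocount of 5. In FADU the METTL4-si libraries had 51.8 and 67.2 CPM (log2 fold change 1.08 ± 0.125 (SE), adjusted p = 0.00145, limma), above both normoxia libraries. In BFTC909 with METTL4-si it had 28.6 and 24.8 CPM, higher than hypoxia in both libraries but not called (0.27, adjusted p = 0.0654, limma).

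SLC1A4 (chromosome 2, 65215611 to 65250999, plus strand) had the largest hypoxia rise of the members in BFTC909, from 22.9 and 25.0 to 61.8 and 68.8 CPM (log2 fold change 1.41 ± 0.0855 (SE), adjusted p = 3.96e-05, limma). The METTL4-si libraries were lower, at 49.6 and 48.1 CPM (log2 fold change -0.41 ± 0.0855 (SE), adjusted p = 0.0104, limma), which was still above normoxia, and this call was lost without hypoxia replicate 2. In FADU it had 11.97 and 11.7 CPM in normoxia and 10.2 and 12.5 CPM in hypoxia, which overlapped. The METTL4-si libraries had 16.7 and 16.0 CPM there (log2 fold change 0.50 ± 0.119 (SE), adjusted p = 0.0189, limma), above the other 4, and this call was lost without hypoxia replicate 1.

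SLC1A5 (chromosome 19, 47278140 to 47291851, minus strand) fell in FADU hypoxia from 151 and 143 to 92.9 and 99.8 CPM (log2 fold change -0.61 ± 0.152 (SE), adjusted p = 0.0311, limma). It rose in BFTC909 hypoxia from 241 and 251 to 379 and 405 CPM (log2 fold change 0.67 ± 0.0767 (SE), adjusted p = 0.000561, limma). With METTL4-si it had 236 and 264 CPM in BFTC909 (log2 fold change -0.65 ± 0.0767 (SE), adjusted p = 0.00103, limma), a range that overlapped normoxia. In FADU the METTL4-si libraries had 169 and 119 CPM (log2 fold change 0.56 ± 0.152 (SE), adjusted p = 0.0309, limma), the higher value being that of the library with luminal breast transcripts. Without that library the difference was 0.31, below 1.3-fold. The call was also lost without either normoxia or either hypoxia library and held without METTL4-si replicate 2. An annotated antisense RNA covers 23.4% of the SLC1A5 exons, and since the strand setting of the counting is not given in the sources used here, its reads and those of SLC1A5 cannot be told apart.

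The sodium-coupled carriers differed: SLC38A2 rose in BFTC909 hypoxia, and SLC38A1 was called in no comparison. SLC38A1 (chromosome 12, 46576846 to 46663800, minus strand) had 521 and 529, 520.2 and 504 and 680.1 and 632 CPM in normoxia, hypoxia and METTL4-si of FADU, and 383 and 387, 464 and 468 and 396 and 442 CPM in BFTC909. Its METTL4-si difference in FADU and its hypoxia difference in BFTC909 had adjusted p = 0.00898 and 0.0167 (limma) with changes of 0.36 and 0.27, below 1.3-fold. SLC38A2 (chromosome 12, 46751971 to 46766556, minus strand) had 548 and 579 CPM in normoxic and 656 and 711 CPM in hypoxic FADU, a difference of 0.28 (adjusted p = 0.0417, limma) and below 1.3-fold. It rose in BFTC909 hypoxia from 364 and 377 to 608 and 597 CPM (log2 fold change 0.70 ± 0.0639 (SE), adjusted p = 0.000212, limma). With METTL4-si it had 508 and 478 CPM in BFTC909, -0.29 from hypoxia (adjusted p = 0.0129, limma) and below 1.3-fold, and 739 and 779 CPM in FADU.

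With METTL4 overexpression in normoxic FADU, 1 transporter fell. METTL4 itself rose from 35.4 and 32.7 to 158 and 139 CPM (log2 fold change 2.09, adjusted p = 1.56e-09, limma), and CA9 from 0.906 and 0.744 to 9.39 and 9.15 CPM without hypoxia. Of 9 tested members, 0 rose and SLC1A3 alone fell, beside 8.12% of all genes higher and 10.6% lower. SLC1A3 had 42.6 and 40.4 CPM in the controls and 22.8 and 22.1 CPM with METTL4 (log2 fold change -0.86 ± 0.0651 (SE), adjusted p = 1.45e-06, limma), without overlap. SLC7A5 had 1784 and 1713 against 1673 and 1579.7 CPM (difference -0.11, 95% interval -0.20 to -0.01, limma), and SLC3A2 406 and 444 against 400.4 and 414 CPM (95% interval -0.17 to 0.04, limma). SLC1A5 had 118 and 116 against 132 and 127 CPM, a change of 0.15 (adjusted p = 0.0209, limma) and below 1.3-fold. SLC7A2, not tested, had 5.96 and 6.23 CPM in the controls and 3.83 and 4.17 CPM with METTL4. The remaining 5 members had log2 fold changes from -0.28 (SLC7A8) to 0.09 (SLC38A1).

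In the METTL4 mutant clones under hypoxia, compared with 1 control library and so without a test, 3 of 10 transporters were past 1.3-fold in the mean of both clones, beside 13.2% of all genes higher and 16% lower. SLC38A2 was lower in both clones, with 383 CPM in the control and 215 and 192 CPM in clones 1 and 2 (log2 ratios -0.83 and -0.99). SLC1A3 was higher, with 10.98 CPM in the control and 13.7 and 21.5 CPM in the clones (log2 ratios 0.29 and 0.91). SLC7A8 had 2.43 CPM in the control, 0.447 CPM in clone 1 and 2.84 CPM in clone 2, so its mean ratio rested on clone 1. SLC1A4 and SLC1A5 also differed in direction between clones, with log2 ratios of 0.55 and -0.28 and of 0.30 and -0.40. SLC7A5 had 934 CPM in the control and 1066 and 1125 CPM in the clones, and SLC3A2 260.4, 249 and 229 CPM. SLC7A2 was at 0.485 CPM in the control and 0.387 and 0.319 CPM in the clones, and METTL4 at 12.5, 15.9 and 10.6 CPM, a level that does not check the edit.

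The other genes of amino acid handling were taken in 4 lists, to be read beside the shares of all genes called: 9.73% higher and 9.65% lower in FADU hypoxia, 12.5% and 15.3% with METTL4-si in FADU, 17.9% and 18.3% in BFTC909 hypoxia, 13.2% and 11.7% with METTL4-si in BFTC909, 8.12% and 10.6% with overexpression, and 13.2% and 16% in the mutant clones. Most counts below rest on few genes, so a share near these is no result about a list. The lists share genes and are not separate groups. ASNS and GPT2 are in both the ATF4 list and the list of enzymes. SLC7A11 is in both the ATF4 list and that of other transporters, and SESN2 in both the ATF4 list and that of sensing. Over all genes tested the median log2 fold change was -0.03 in FADU hypoxia, 0.02 with METTL4-si in FADU, -0.02 in BFTC909 hypoxia, 0.01 with METTL4-si in BFTC909 and 0.01 with overexpression. Among ATF4 and its targets, 18 of 24 rose and 1 fell in BFTC909 hypoxia (median log2 fold change 0.92). The largest rises were NUPR1 (2.28, adjusted p = 8.37e-06), STC2 (1.82, adjusted p = 0.00113) and PCK2 (1.67, adjusted p = 1.87e-05), all with limma, and ASNS, asparagine synthetase, rose by 1.27. ATF4 rose by 0.40 (adjusted p = 0.00308, limma), and ATF5 alone fell (-0.64). With METTL4-si in BFTC909, 13 of the 24 fell and 1 rose (median -0.40), led by STC2 (-1.59, adjusted p = 0.00325), GPT2 (-0.98, adjusted p = 8.71e-05) and MTHFD2 (-0.86, adjusted p = 0.000302), with CEBPB (0.60) the one that rose. The 13 became 8 without hypoxia replicate 1 or without replicate 2, and 11 without METTL4-si replicate 2. In FADU hypoxia 3 of 23 rose, ATF3 (1.49, adjusted p = 0.00278), STC2 (1.27, adjusted p = 0.033) and EIF4EBP1 (0.67, adjusted p = 0.0157), and 4 fell, the largest being ATF5 (-1.03), CHAC1 (-0.91) and CEBPB (-0.85, limma). The 7 called became 1 or 2 when any 1 of the 4 compared libraries was left out. With METTL4-si in FADU, 3 of 23 rose, SLC7A11 (0.89), CEBPB (0.72) and PCK2 (0.41), and 6 fell, the largest being ATF3 (-1.02), EIF4EBP1 (-0.91) and MTHFD2 (-0.74), with ATF4 itself at -0.43, and the 9 called became 5 without either hypoxia library and 10 without METTL4-si replicate 1. The medians of this list were -0.19 in FADU hypoxia, -0.15 with METTL4-si in FADU, 0.92 in BFTC909 hypoxia, -0.40 with METTL4-si in BFTC909 and 0.04 with overexpression. Overexpression raised 2 of 23, STC2 (1.06) and EIF4EBP1 (0.78), and lowered 3, CEBPB (-0.82), SLC7A11 (-0.56) and ALDH1L2 (-0.40). In the mutant clones ATF4 had log2 ratios of -0.51 and -0.54, and of 23 listed genes 7 were past 1.3-fold lower and 4 higher.

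Of the other amino acid transporters, 6 of 14 rose and 0 fell in BFTC909 hypoxia, the largest being the glutamate carrier SLC1A1 (2.58, adjusted p = 4.26e-05), the glycine carrier SLC6A9 (1.53, adjusted p = 0.000167) and the glutamine carrier SLC38A5 (1.498, adjusted p = 0.000326), with limma. The same 3 were the largest of the 4 that fell with METTL4-si there, with SLC38A5 at -1.54, SLC1A1 at -1.17 and SLC6A9 at -0.92, and 3 rose, SLC7A7 (1.39), SLC43A1 (1.01) and SLC38A9 (0.38). In FADU hypoxia 5 of 16 fell, the largest being SLC6A9 (-0.83), SLC43A2 (-0.83) and SLC16A10 (-0.65), and SLC1A1 (0.63) and SLC7A9 (0.50) rose, although leaving out any 1 of the 4 compared libraries lowered the total of 7 to 1. With METTL4-si in FADU 8 of 16 rose and 0 fell, led by SLC43A2 (1.29), SLC16A10 (1.22) and SLC6A9 (1.12), and 7 rose and 0 fell without METTL4-si replicate 1. Without METTL4-si replicate 2 of BFTC909, 4 rose and 4 fell there. The list medians were -0.02 in FADU hypoxia, 0.38 with METTL4-si in FADU, 0.33 in BFTC909 hypoxia, 0.04 with METTL4-si in BFTC909 and -0.10 with overexpression. The cystine carrier SLC7A11 fell in FADU hypoxia (-0.52, adjusted p = 0.0252, limma) and rose in BFTC909 hypoxia (0.91, adjusted p = 0.00154, limma), and it fell with METTL4 overexpression (-0.56), where 2 of 13 fell and 1 rose.

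Among enzymes of glutamine, glutamate, aspartate and arginine, 4 of 16 fell and 0 rose in FADU hypoxia, led by ornithine decarboxylase ODC1 (-1.34, adjusted p = 0.000296), ASS1 (-1.08, adjusted p = 0.00862) and CAD (-0.66, adjusted p = 0.0019), with limma. In BFTC909 hypoxia 3 of 12 rose, ASNS (1.27), GPT2 (1.26) and ASS1 (0.94), and 3 fell, ODC1 (-1.71), GOT2 (-0.96) and PPAT (-0.79). With METTL4-si 3 of 12 fell in BFTC909, GPT2 (-0.98), OAT (-0.58) and ASNS (-0.40), and ASS1 rose (0.46). In FADU 4 of 16 fell with METTL4-si, the largest GOT2 (-0.66), GLUL (-0.59) and OAT (-0.52), and ASS1 (1.02) and GLS2 (0.89) rose. Without METTL4-si replicate 1 of FADU, 4 fell and 4 rose, without either hypoxia library 3 were called in all, and without METTL4-si replicate 2 of BFTC909, 2 fell and 1 rose there. Medians over the enzymes were -0.03 in FADU hypoxia, 0.02 with METTL4-si in FADU, -0.11 in BFTC909 hypoxia, -0.27 with METTL4-si in BFTC909 and -0.03 with overexpression. Overexpression raised ODC1 (1.11) and ARG2 (0.56) and lowered ASS1 (-0.69) and PRODH (-0.63) of 16.

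For amino acid sensing at the lysosome, the Rag GTPase gene RRAGA rose in hypoxia in both lines (FADU 0.64, BFTC909 1.03) and was lower with METTL4-si in both (FADU -0.93, BFTC909 -1.12, adjusted p at most 0.00686, limma). In all, 6 of 26 rose and 4 fell in FADU hypoxia, 1 rose and 5 fell with METTL4-si there, 5 rose and 2 fell in BFTC909 hypoxia, and 1 rose and 1 fell with METTL4-si. The 10 called in FADU hypoxia became 1 to 4 when any 1 of the 4 compared libraries was left out. Without METTL4-si replicate 1 of FADU, 7 fell and 1 rose with METTL4-si, without hypoxia replicate 2 the 6 called became 4, and without METTL4-si replicate 2 of BFTC909, 1 rose and 1 fell there. Besides RRAGA, the leading genes were SESN3 (0.66), SESN1 (0.65), MLST8 (-0.72) and SEH1L (-0.54) in FADU hypoxia, RRAGC (-1.08) and LAMTOR3 (-0.89) with METTL4-si in FADU, and SESN2 (1.03) and SEH1L (-0.86) in BFTC909 hypoxia. Medians over the sensing genes were -0.04 in FADU hypoxia, -0.13 with METTL4-si in FADU, 0.01 in BFTC909 hypoxia, -0.03 with METTL4-si in BFTC909 and 0.12 with overexpression. FNIP2 (0.89) was the one that rose with METTL4-si in BFTC909. Overexpression lowered SESN3 (-0.68) and SESN1 (-0.40) and raised 0 of 26.

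**Figure D4:**
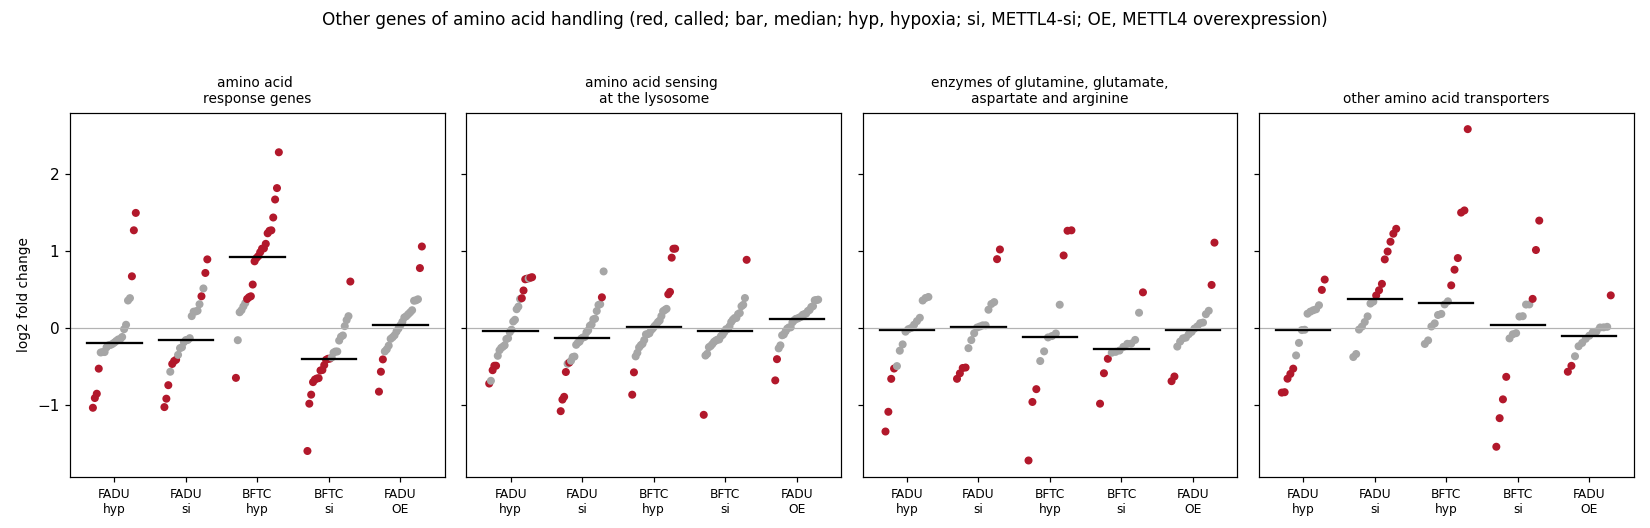
Log2 fold change of every tested gene of the 4 other lists in 5 comparisons (red, called; black bar, median of the list), each point a gene. In BFTC909 hypoxia the median of the amino acid response genes is 0.92, and with METTL4-si it is -0.40.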

How the data were processed

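RNA-seq of ribosomal RNA-depleted total RNA was measured as paired-end reads on an Illumina NextSeq 550. Per the labels and the study's methods, the authors used Trim Galore for trimming, HISAT2 for alignment to hg19 (GRCh37), htseq-count for reads per gene and edgeR for normalization; versions and the strand setting are not given in the sources used here. The values deposited by the authors are TMM-normalized CPM, a signal on 4 separately scaled tables of 15719 to 19505 genes; other deposited files hold the authors' own comparisons (fold changes and p-values) and were not used. In 3 tables every value was a whole multiple, within 0.01, of the value of 1 read, which gave library depths of 19.0 to 24.9 M reads on genes. The mutant table lists genes with at least 10 reads in each library; its values gave 17.8 to 20.1 M reads, and 40.9% to 43.0% of the scaled total was in rows that name no gene, left out here.

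Symbols were matched to 15308 to 18887 of the gene identifiers per table. Groups were taken from the sample titles. Genes with at least 1 CPM in at least 2 libraries were fitted on log2(CPM + 1), with all groups of a table sharing the spread, in limma 3.58.1 (R 4.3.3) with trend, after the fit was tested on simulated data. Called genes changed at least 1.3-fold at an adjusted p under 0.05 over all tested genes. Fold changes on this scale understate those of low genes. Alternatives covered pseudocounts, filters, scaling, edgeR 4.0.16 on recovered reads, the replicate block and each library left out. Replicates differed by more than counting noise (chi-square per degree of freedom 2.11 to 28.9), so none was counted as 1 sample. Of 21 libraries 19 were used: 2 columns of the overexpression table carry a name that matches no label, so the RP11-390F4.3 libraries were not analysed here. All 10 members are named everywhere, and up to 3 called genes per direction of each list, with the largest changes; ATF4 and SLC7A11 were also named after their values were seen. Members, lists and markers were chosen with earlier results of these data known. Coordinates are GRCh37; promoter sequences are those of RefSeq (GRCh38.p14), placed in GRCh37 by exact match. One gene of the comparison with SLC7A2 is not reported here.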

Additional observations from a re-analysis of the deposited data

Results flagged for a closer look

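Members were listed here when, in the same contrast, every library of one line lay on one side of its reference libraries and every library of the other line on the opposite side. The lines were scaled in separate tables, so no difference between them was tested. In hypoxia against normoxia this held for 4 members, 3 of them called in both lines. The log2 fold change of SLC7A5 was -0.44 in FADU and 1.25 in BFTC909, a difference of 1.69. SLC3A2 had -0.45 and 0.57, a difference of 1.03, and SLC1A5 had -0.61 and 0.67, a difference of 1.27. In FADU, the calls of SLC7A5 and SLC1A5 were lost when any single compared library was left out. Among these settings the FADU call of SLC3A2 held only without normoxia replicate 1. SLC1A5 also lost its FADU call in a fit without trend (adjusted p = 0.0559, limma). SLC38A1, called in neither line, had -0.04 and 0.27, a difference of 0.31.

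With METTL4-si against Scramble-si in hypoxia it held for 5 members, 2 of them called in both lines. SLC1A4 had a log2 fold change of 0.50 in FADU and -0.41 in BFTC909, a difference of -0.91, and SLC1A5 had 0.56 and -0.65, a difference of -1.2. Without METTL4-si replicate 1 of FADU, the library with luminal breast transcripts, the FADU value of SLC1A5 was 0.31 and not called, which leaves 1 member called in both lines. SLC3A2, called in BFTC909 alone, had 0.06 and -0.76, a difference of -0.82. Called in neither line, SLC38A1 had 0.36 and -0.16, a difference of -0.51, and SLC38A2 had 0.15 and -0.29, a difference of -0.44. In FADU the METTL4-si libraries had CA9 near its level in normoxia and METTL4 near its level with Scramble-si, in BFTC909 all 8 hypoxia check genes were lower with METTL4-si (median -1.38), and the part of these in these differences was not tested.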

How the results depend on the processing

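With a fold change of at least 2 in place of 1.3, the members called were 0 in FADU hypoxia, 1 with METTL4-si in FADU, 2 in BFTC909 hypoxia, 2 with METTL4-si in BFTC909, 0 with METTL4 overexpression and 0 past the fold in the mutant clones. Counts with METTL4-si in BFTC909 in this paragraph include SLC7A8 wherever it met the limits, as it did here, although its values there are a description. Leaving out 1 library at a time gave 0 to 4 members called in FADU hypoxia, 1 to 5 with METTL4-si in FADU, 5 to 7 in BFTC909 hypoxia, 5 to 7 with METTL4-si in BFTC909 and 1 with overexpression. Where a group was left with 1 library, that library was assumed to vary like the others. With 2 FADU groups so reduced, the spread rested on the 2 hypoxia libraries alone. Without normoxia replicate 1 and METTL4-si replicate 1 of FADU together, 4 and 3 members were called in the FADU comparisons. The replicate numbers share only a number: replicate differences correlated at 0.648 between normoxia and METTL4-si of FADU and from -0.065 to 0.154 elsewhere, and with the replicate block 4, 4, 6, 6 and 1 members were called, as without it. For single members, 736 of 794 values under an alternative kept their side of the threshold, 52 lost a call and 6 gained one; 10 of the 736 changed sign without being called in either setting, and no called member changed sign. Member counts with edgeR equalled those with limma in each of the 5 comparisons. Counts for the 4 other lists under these settings were added after seeing the data. The comparison of RP11-390F4.3 overexpression was not run. Intervals rest on 2 libraries a group, and values near 1 CPM on about 20 reads.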
